A study of Mus musculus with 32 samples.

Results

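The 6 control genes of glycolysis and gluconeogenesis described here were followed across 4 organs of mice that lack ketohexokinase, namely Pfkfb3, Hk2, Fbp1, Pck1, G6pc and Gpd1. They were taken by gene symbol wherever a deposited organ table held them, and make 6 of the 10055 gene identifiers found in at least 1 table. In liver 3 of them were listed (Pfkfb3, Fbp1 and Gpd1), in ileum 5 (Pfkfb3, Hk2, Pck1, G6pc and Gpd1), in duodenum 1 (G6pc) and in jejunum 0. Polyadenylated RNA was sequenced in bulk from liver and from the duodenum, jejunum and ileum of the small intestine in Khk knockout (KO) and wild-type (WT) mice, all male, with 4 libraries per genotype and organ and 32 in all. Strain, age, diet, fasting state and the construction of the knockout are not given in the sources used here, nor whether 1 mouse gave several of the organs. The study's stated interest is iron handling under fructose and ketohexokinase.

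Ketohexokinase phosphorylates fructose, and the products are split to triose phosphates that can be burned in glycolysis, built into glucose by gluconeogenesis, or turned into glycerol phosphate for fat synthesis. Glycolysis and gluconeogenesis share most of their enzymes and are steered at a few one-way steps. Hexokinases such as Hk2 trap glucose in the cell, and glucose-6-phosphatase, whose catalytic subunit is G6pc, frees it again. Pfkfb3 is a bifunctional enzyme that makes fructose bisphosphate of the signalling kind, which activates phosphofructokinase and inhibits fructose bisphosphatase, the enzyme that Fbp1 encodes. Pck1, the cytosolic phosphoenolpyruvate carboxykinase, starts gluconeogenesis from oxaloacetate, and Gpd1, the cytosolic glycerol phosphate dehydrogenase, links the triose phosphates to glycerol phosphate. Liver and kidney are the classical glucose-producing organs, and the small intestine also expresses these enzymes.

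Khk itself checked the labels. Its mean in KO libraries was 4.59% of WT in duodenum, 6.65% in ileum, 9.25% in jejunum and 11.1% in liver, and the genotypes did not overlap in any organ. No deposited table went past an unadjusted p of 0.05 in the authors' own comparison, which left 6375 genes for liver, 5187 for ileum, 2413 for jejunum and 1567 for duodenum. A gene therefore had to differ to be seen, and a gene outside a table is not analysed here. The listed genes took 7505439 to 14331517 reads per library in liver and 6531593 to 9149003 in ileum, while jejunum had 3053896 to 4325568 and duodenum 1722220 to 3549978. Among the listed genes of liver and ileum, long transcripts tended to be higher in KO and short transcripts lower. The size of that trend at each member's length is given beside its values. It rests on genes listed for differing and need not hold for all genes of an organ.

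At an adjusted p of 0.05, Pfkfb3 rose and Fbp1 and Gpd1 fell in KO liver, while in ileum Pfkfb3 and Hk2 rose and Gpd1 fell (edgeR quasi-likelihood test with Benjamini-Hochberg adjustment). Of the 8 member and organ pairs that passed the filter on low counts, 6 were called. The edgeR test called 14.7% of the genes that the authors adjusted over in liver and 13.9% in ileum, against 0.00640% in duodenum and 0.0101% in jejunum. Most of those genes are outside the tables and were not tested. Among genes that passed the filter, the like background for the 8 pairs, it called 2675 of 5734 in liver and 2221 of 4788 in ileum. The counts were 1 of 1406 in duodenum and 1 of 2043 in jejunum. In the authors' deposited table the called shares were 23.9% in liver (12.5% higher and 11.4% lower in KO), 15.6% in ileum (8.76% higher and 6.86% lower), 0.759% in jejunum and 0.224% in duodenum. With the length trend of each organ taken out, Pfkfb3 in liver was the 1 pair still called, and the called shares of all genes were 4.31% in liver and 2.97% in ileum. Of the genes tested in that fit, 786 of 5734 were called in liver and 476 of 4788 in ileum. After removal of the trend over GC content 4 pairs were called, beside 13.2% of all genes in liver and 5.83% in ileum. Of the tested genes these were 2414 of 5734 and 935 of 4788. The KO and WT libraries did not overlap for 65.0% of the genes listed in liver, 66.8% of those in ileum and 45.9% of those in duodenum, which is the background for the statements on overlap made here. Since a member enters a table only by differing, these counts are given as a description.

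**Figure D1:**
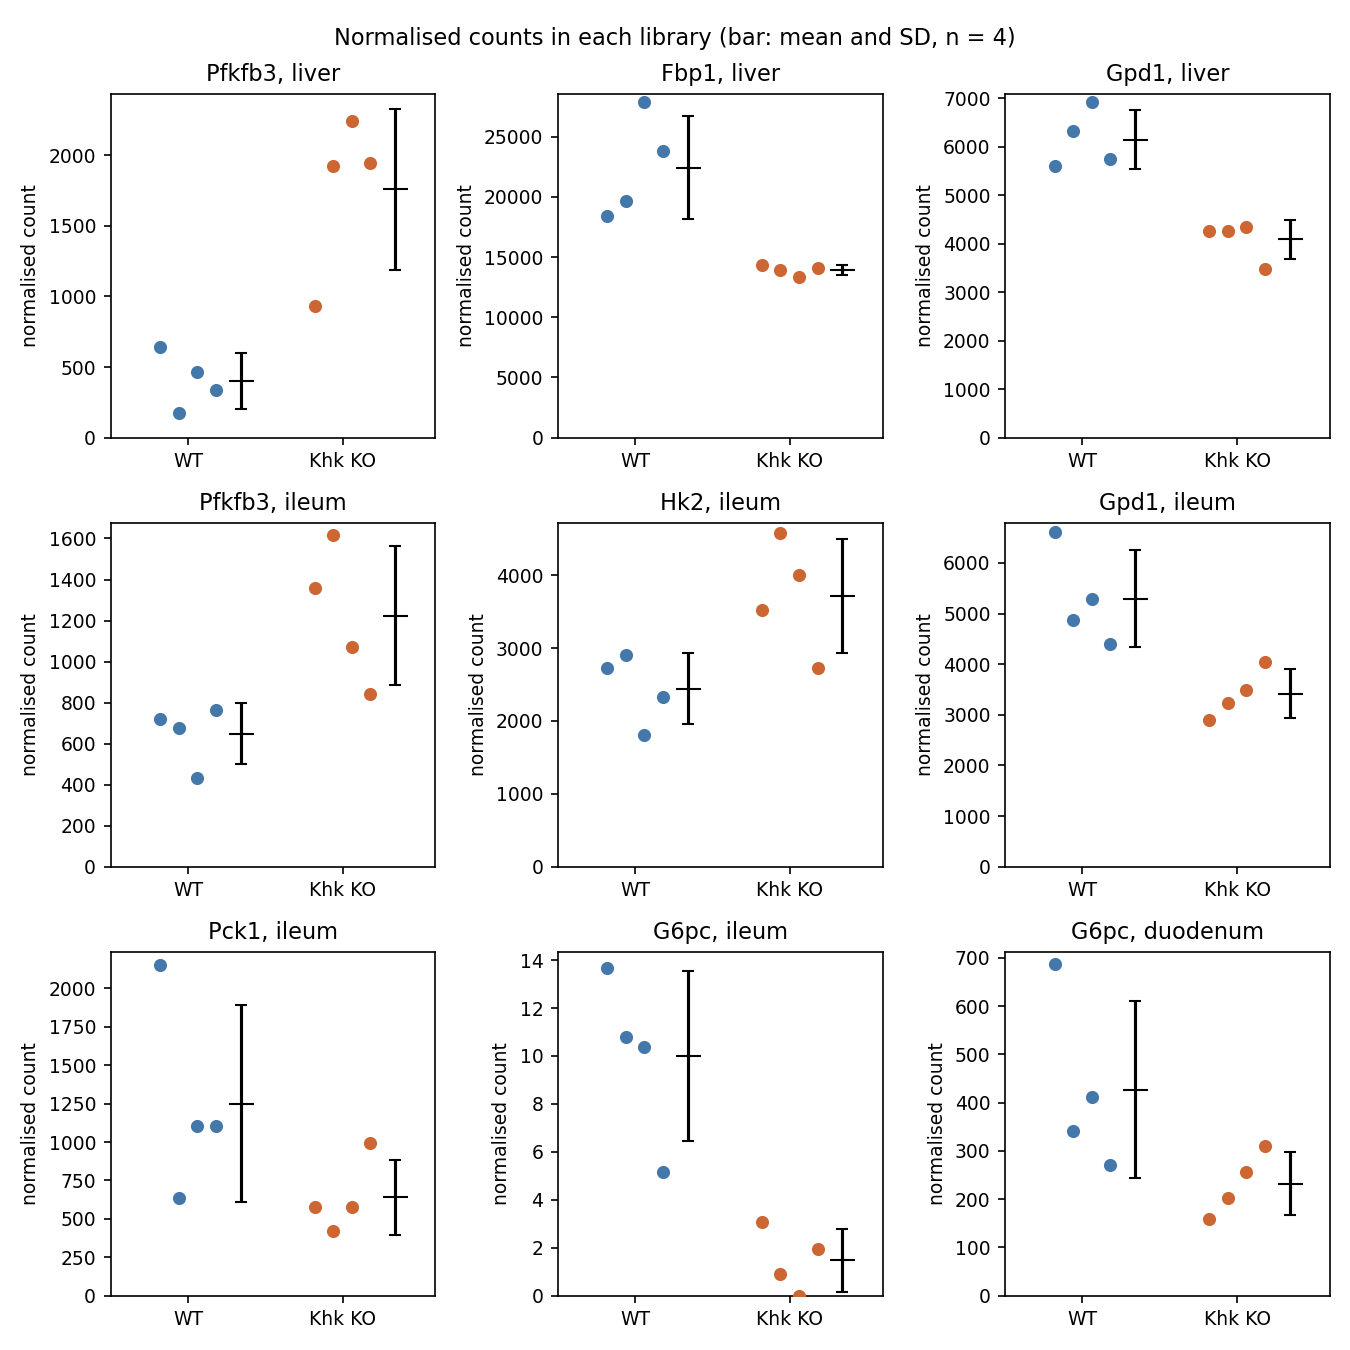
Normalised read counts of each member in every library, 1 panel per member and organ, with KO and WT libraries as points and the mean ± SD as bars. The KO points lie apart from the WT points for Pfkfb3, Fbp1 and Gpd1 in liver and for Pfkfb3, Gpd1 and G6pc in ileum, and overlap for Hk2 and Pck1 in ileum and G6pc in duodenum.

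Pfkfb3 (ENSMUSG00000026773) lies on chromosome 2 at 11471433 to 11554077 on the minus strand of GRCm38. In liver its normalised read counts were 641, 173, 464 and 338 in WT libraries 1 to 4, and 932, 1923, 2238 and 1941 in KO libraries 1 to 4. Every KO library was above every WT library, and KO library 1 lay nearest to the WT range. The means were 1759 ± 569.5 in KO and 404 ± 198 in WT (SD, n = 4 each), a 4.35-fold difference with an exact two-sided permutation p of 0.0286, the smallest that 4 against 4 libraries allow. The edgeR log2 fold change was 2.14 ± 0.38 (SE) with an adjusted p of 0.0175, and the authors' deposited table gave 2.12 with an adjusted p of 1.38e-04. With the length trend taken out it was 1.54 ± 0.34 with an adjusted p of 0.0266. Pfkfb3 thus kept its call although its length of 7561 bases sits where the trend itself gives a KO minus WT difference of 0.60. Leaving out KO library 2, KO library 4 or WT library 4 left the log2 fold change at 2.06 with adjusted p of 0.0676, 0.0542 and 0.0529.

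Pfkfb3 rose less in ileum than in liver by value, but the difference between organs was not tested because the tables were normalised apart. The ileum WT libraries held 722, 678, 432 and 762 normalised counts and the KO libraries 1359, 1619, 1073 and 840.2. The genotypes did not overlap, with KO library 4 closest to WT. The means were 1223 ± 339 in KO and 649 ± 148 in WT (SD, n = 4 each), a 1.89-fold difference with an exact permutation p of 0.0286. The edgeR log2 fold change was 0.93 ± 0.23 with an adjusted p of 0.0252, and the authors' deposited table gave 0.92 with an adjusted p of 0.00281. The call was lost with the length trend taken out, where the log2 fold change was 0.49 with an adjusted p of 0.531 and the trend at this length was 0.43. It was also lost without KO library 1 (adjusted p = 0.0775), KO library 2 (0.0744), WT library 2 (0.0619) or WT library 3 (0.0516).

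Hk2 (ENSMUSG00000000628) lies on chromosome 6 at 82725025 to 82774454 on the minus strand and was listed in ileum alone. Its normalised counts were 2728, 2907, 1801 and 2334 in WT and 3527, 4584, 4003 and 2733 in KO. The genotypes overlapped, since KO library 4 lay below WT library 2. The means were 3712 ± 783 in KO and 2442 ± 489.9 in WT (SD, n = 4 each), a 1.52-fold difference with an exact permutation p of 0.0571. Its edgeR log2 fold change of 0.61 ± 0.18 had an adjusted p of 0.0462, close to the threshold, and the authors' deposited table gave 0.60 with an adjusted p of 0.0254. The call was lost with the length trend taken out (log2 fold change 0.34, adjusted p = 0.778), with the authors' size factors (0.60, adjusted p = 0.0655) and under limma (0.60, adjusted p = 0.0580). It was also lost without KO library 1 (adjusted p = 0.0991), 2 (0.129) or 3 (0.105), or without WT library 2 (0.0545), 3 (0.0999) or 4 (0.0705). The length trend at its 5969 bases was 0.26. With the trend over GC content taken out, Hk2 kept its call at 0.79 with an adjusted p of 0.0262.

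Fbp1 (ENSMUSG00000069805), on chromosome 13 at 62864753 to 62888282 on the minus strand, was listed in liver alone. The WT libraries held 18405, 19651, 27867 and 23792 normalised counts and the KO libraries 14314, 13956, 13325 and 14108. All 4 KO libraries lay below all 4 WT libraries, and the KO values were tight, with a coefficient of variation of 3.06% against 19.1% in WT. The KO mean of 13926 ± 426 was 62.1% of the WT mean of 22429 ± 4295 (SD, n = 4 each), with an exact permutation p of 0.0286. The edgeR log2 fold change was -0.66 ± 0.13 with an adjusted p of 0.0183, and the authors' deposited table gave -0.69 with an adjusted p of 2.40e-04. With the length trend taken out the log2 fold change was -0.047 ± 0.094 with an adjusted p of 1, since the trend at its 1702 bases was -0.62. The difference in Fbp1 was thus of the size of the trend at its length among the genes listed in liver. Genes that did not differ are not listed and are not part of that trend. Without KO library 1, 2 or 4 the adjusted p was 0.0566, 0.0676 and 0.0542, and without WT library 4 it was 0.0533.

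Pck1 (ENSMUSG00000027513), on chromosome 2 at 173153048 to 173159273 on the plus strand, was listed in ileum. WT libraries 1 to 4 held 2152, 638, 1106 and 1102 normalised counts, and KO libraries 1 to 4 held 574, 422, 575 and 990.5. WT library 1 stood well above the rest, and KO library 4 lay above WT library 2, so the genotypes overlapped. The KO mean of 640.3 ± 244 was 51.2% of the WT mean of 1249 ± 641 (SD, n = 4 each), with an exact permutation p of 0.0571. Pck1 did not pass the edgeR test, at a log2 fold change of -0.93 ± 0.32 with an adjusted p of 0.0760, whereas the authors' deposited table called it at -0.96 with an adjusted p of 0.0298. DESeq2 called it at -0.92 with an adjusted p of 0.0276. Without KO library 4 it passed the edgeR test at -1.21 with an adjusted p of 0.0471, and without WT library 1 the log2 fold change was -0.62 with an adjusted p of 0.140. With the length trend taken out, which was -0.25 at its 3429 bases, it was -0.68 with an adjusted p of 0.516, and with the GC trend taken out -0.65 with an adjusted p of 0.435.

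G6pc (ENSMUSG00000078650), on chromosome 11 at 101367561 to 101377903 on the plus strand, was the only member listed in duodenum. Its normalised counts there were 687, 341, 411 and 269.7 in WT and 159, 202, 256 and 310.3 in KO. The genotypes overlapped, as KO library 4 exceeded WT library 4. The KO mean of 232 ± 65.6 was 54.3% of the WT mean of 427 ± 182 (SD, n = 4 each), with an exact permutation p of 0.0571. G6pc did not pass in duodenum, with an edgeR log2 fold change of -0.70 ± 0.26 and an adjusted p of 1, while the authors' deposited table gave -0.88 with an adjusted p of 0.328. In this organ the 2 scalings differed, with a median log2 fold change of the tested genes of -0.18 by TMM and -0.33 by the authors' size factors, under which edgeR gave G6pc -0.88 with an adjusted p of 0.838. TMM was computed only on genes listed for differing, and which scaling fits the organ better was not tested. The length trend at its 2414 bases was -0.27. That value includes the shift shared by the listed genes of duodenum, whose median by the authors' size factors was -0.33.

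In ileum G6pc was near the limit of detection. WT libraries 1 to 4 had 11, 12, 10 and 5 raw reads and KO libraries 1 to 4 had 4, 1, 0 and 2, so that every KO library lay below every WT library. In normalised counts these were 13.7, 10.8, 10.4 and 5.18 in WT and 3.07, 0.90, 0 and 1.93 in KO, where the library at 0 allows up to 3.54 by a floor of 3 reads. The summed 7 KO reads were 16.5% of the 38 WT reads per unit of size factor, with an exact 95% binomial interval of 6.21% to 37.4% that covers counting error only. The normalised counts differed with an exact permutation p of 0.0286. G6pc did not pass the filter on low counts in ileum. Without that filter its edgeR log2 fold change was -2.56 ± 0.73 with an adjusted p of 0.0386, a value that depends on the prior count. DESeq2 gave -2.64 (adjusted p = 0.0247) and limma -2.27 (adjusted p = 0.0286). With 1 library left out the gene passed the filter in 5 cases, and the call was lost without KO library 1 (-3.16, adjusted p = 0.0637), KO library 2 (-2.35, 0.107), KO library 3 (-2.22, 0.0745) or KO library 4 (-2.62, 0.0837), and made without WT library 4 (-2.74, 0.0287). The length trend at the length of G6pc was -0.42 in ileum. The authors' deposited table gave an unadjusted p of 0.00654 and listed the adjusted p as 1.

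Gpd1 (ENSMUSG00000023019), on chromosome 15 at 99717515 to 99725005 on the plus strand, differed in the same direction in both organs that listed it. An antisense gene, Gm16537, covers 13.0% of its exon bases, and whether the counting used strand is not given in the sources used here, so its counts are uncertain by an amount that the share of bases does not fix. In liver the WT libraries held 5605, 6315, 6925 and 5746 normalised counts and the KO libraries 4265, 4264, 4354 and 3487. The genotypes did not overlap, and KO library 4 was the lowest of all. The KO mean of 4092 ± 406 was 66.6% of the WT mean of 6148 ± 602 (SD, n = 4 each), with an exact permutation p of 0.0286. The edgeR log2 fold change was -0.56 ± 0.12 with an adjusted p of 0.0206, and the authors' deposited table gave -0.59 with an adjusted p of 3.60e-04. The length trend at its 2961 bases was -0.41. The call was lost with that trend taken out (log2 fold change -0.17, adjusted p = 0.697) and with the GC trend taken out (-0.33, adjusted p = 0.101). It was also lost without KO library 1 (adjusted p = 0.0566), 2 (0.0676) or 4 (0.0580), or without WT library 2 (0.0523) or 4 (0.0533).

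The Gpd1 counts in ileum were 6613, 4869.6, 5291 and 4392 in WT and 2896, 3224, 3492 and 4049 in KO. The genotypes did not overlap, though KO library 4 came near WT library 4. The KO mean of 3415 ± 488 was 64.5% of the WT mean of 5291 ± 954 (SD, n = 4 each), with an exact permutation p of 0.0286. The edgeR log2 fold change was -0.62 ± 0.13 with an adjusted p of 0.0140, and the authors' deposited table gave -0.63 with an adjusted p of 0.00436. The length trend here was -0.34. The log2 fold change was -0.27 with it taken out (adjusted p = 0.333), -0.18 with the GC trend taken out (adjusted p = 0.774) and -0.56 without KO library 1 (adjusted p = 0.0528).

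**Figure D2:**
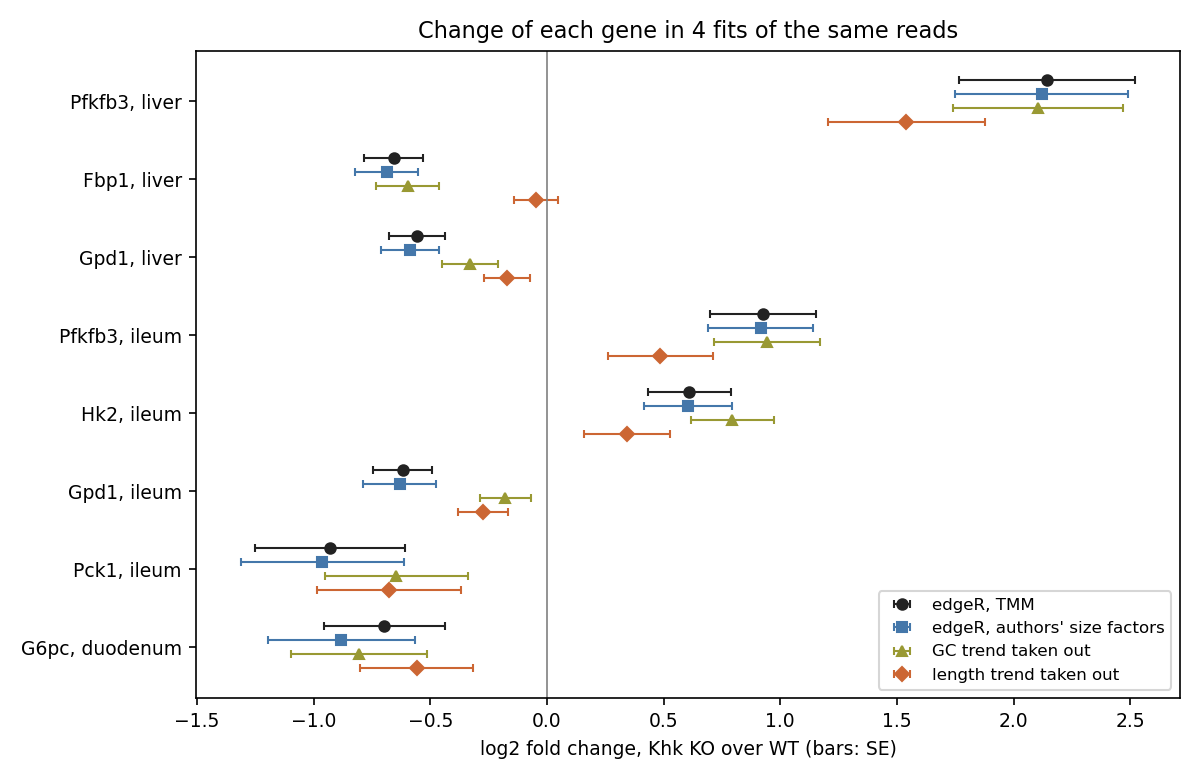
Log2 fold change of KO over WT with its SE for each member and organ, from 4 edgeR fits: TMM scaling, the authors' size factors, and the GC or length trend of the organ taken out. Both trend fits used the authors' size factors. Pfkfb3 in liver stays above 1.5 in each fit. Fbp1 in liver is at -0.66 by TMM, -0.69 with the authors' size factors and -0.047 when the length trend is also taken out.

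Levels of different members were compared per gene length. In WT liver, Fbp1 stood at 1135 ± 230.1 FPKM (reads scaled by gene length and library total), Gpd1 at 179 ± 19.7 and Pfkfb3 at 4.58 ± 2.20 (SD, n = 4 each). These 3 levels lay further apart than their spread. In KO liver the order was the same, with 693 ± 16.3 FPKM for Fbp1, 117 ± 12.2 for Gpd1 and 19.7 ± 6.47 for Pfkfb3. In WT ileum Gpd1 led at 85.4 ± 14.0 FPKM, followed by Hk2 at 19.6 ± 3.86, Pck1 at 17.3 ± 8.48 and Pfkfb3 at 4.10 ± 0.90. Hk2 and Pck1 did not differ there beyond their spread. In KO ileum Hk2, at 29.8 ± 6.08 FPKM, lay above Pck1 at 8.99 ± 3.50 and Pfkfb3 at 7.76 ± 2.11, and the latter pair did not differ beyond their spread. Gpd1 still led in KO ileum at 55.4 ± 8.17 FPKM. G6pc stood at 8.61 ± 3.68 FPKM in WT duodenum and 4.68 ± 1.32 in KO duodenum.

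Ratios of members within a library do not depend on library scaling, although they still hold any trend over gene length. In liver the log2 ratio of Pfkfb3 to Fbp1 counts was -4.84, -6.83, -5.91 and -6.14 in WT libraries and -3.94, -2.86, -2.57 and -2.86 in KO libraries. The genotypes did not overlap, and the means of -3.06 ± 0.60 in KO and -5.93 ± 0.82 in WT differed by 2.87. The ratio of Pfkfb3 to Gpd1 was also separate between genotypes, with a KO minus WT difference of 2.79. The ratio of Fbp1 to Gpd1 overlapped between genotypes and differed by -0.081. In ileum the log2 ratios of Pfkfb3 to Gpd1 and of Hk2 to Gpd1 were separate between genotypes, by 1.53 and 1.23. The ratios of Pfkfb3 to Hk2 (0.30), Pfkfb3 to Pck1 (1.81), Hk2 to Pck1 and Pck1 to Gpd1 (-0.27) overlapped. The separate ratios of Pfkfb3 to Fbp1 and Gpd1 follow from the counts of these genes, which already did not overlap in the same organ and differed in opposite directions. They are thus no further evidence. In liver the length trend alone was 0.60 at Pfkfb3, -0.62 at Fbp1 and -0.41 at Gpd1. No test was run on these ratios.

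**Figure D3:**
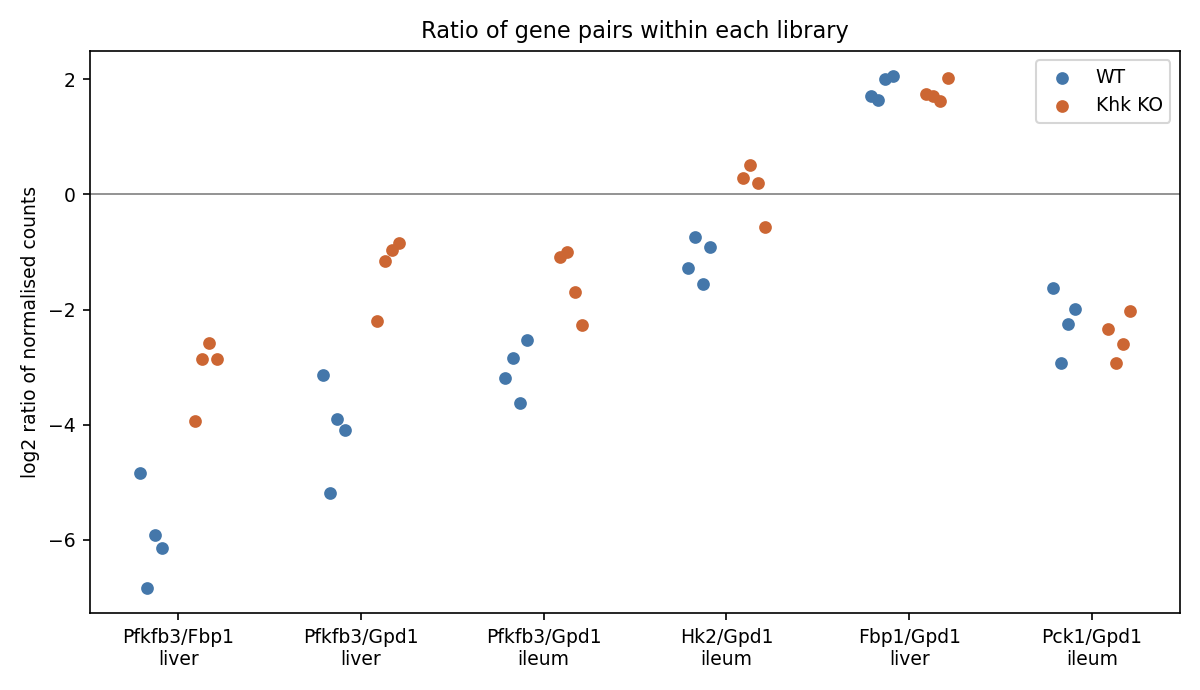
Log2 ratio of the counts of a pair of members within each library, in liver and ileum, for 6 of the ratios, with each KO or WT library as a point. The ratios of Pfkfb3 to Fbp1 and to Gpd1 in liver and of Pfkfb3 and Hk2 to Gpd1 in ileum separate the genotypes, while Fbp1 to Gpd1 in liver and Pck1 to Gpd1 in ileum overlap.

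The upstream sequences of Pfkfb3, Hk2 and Pck1 are printed because these genes carry letters known from hormone and oxygen control. The cAMP response element has the core ACGTCA, or TGACGT on the other strand, and the hypoxia response element has the core ACGTG, or CACGT. Of the 6 members, 5 had promoter windows in RefSeq (GRCm38.p6), with 2 starts for Pfkfb3 and none for Gpd1. The motifs were chosen after the windows had been read, and a match is a description of letters and no site of binding. Capitals mark these cores, and each sequence runs 5′ to 3′ on the gene's strand. The Pfkfb3 stretch is at chr2:11553975-11554004 on the minus strand, that of Hk2 at chr6:82774455-82774704 on the minus strand and that of Pck1 at chr2:173152823-173153047 on the plus strand. The Pfkfb3 stretch lies upstream of the RefSeq start but inside the gene's extent in the deposited table.
Pfkfb3: ctcctccgcgccgTGACGTGccaagctgtg
Hk2: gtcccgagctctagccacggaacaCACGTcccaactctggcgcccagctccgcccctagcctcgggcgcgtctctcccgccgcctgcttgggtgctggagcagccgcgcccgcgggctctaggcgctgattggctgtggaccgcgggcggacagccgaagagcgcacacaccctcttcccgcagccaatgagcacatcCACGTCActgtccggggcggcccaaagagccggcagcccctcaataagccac
Pck1: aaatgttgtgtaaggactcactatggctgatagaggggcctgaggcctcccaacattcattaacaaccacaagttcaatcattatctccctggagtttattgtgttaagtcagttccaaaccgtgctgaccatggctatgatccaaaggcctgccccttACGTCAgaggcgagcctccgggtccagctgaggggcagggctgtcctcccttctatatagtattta

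Pfkfb3 and Hk2, the pair of members that rose in ileum, share the same 7 letters on opposite strands, TGACGTG at 62 bases upstream of the outer Pfkfb3 start and CACGTCA at 52 bases upstream of the Hk2 start. In these letters the cAMP and hypoxia cores overlap. Hk2 held a further CACGT at 226 bases upstream, and Pck1 held ACGTCA at 91. Among 32851 RefSeq promoter windows of 250 bases, CACGTCA on either strand occurred in 1.65%, ACGTCA in 6.47% and ACGTG in 16.6%. The inner Pfkfb3 start had CACGTG at 53 bases upstream, letters found in 6.02% of windows. None of these cores was found in the Fbp1 window, and that of G6pc held a TATAAA at 29 bases, found in 12.4% of windows.

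Of 90 genes on 6 lists of glucose metabolism, which hold the members too, 26 were called in liver in the authors' deposited table, or 28.9% against the 23.9% of all genes it tested, and 18 of 90 in ileum, against 15.6%. Neither duodenum nor jejunum had a call among the 6 and 11 listed genes of these lists. The shares of the 6 lists together were thus near the background, although the 90 may include genes that the authors did not adjust over. Single lists held 7 to 24 genes and spread more widely. In liver they ran from 14.3% for glucose transport to 37.5% for glycolysis enzymes and for hormone and transcription controls. In ileum they ran from 0% for glucose transport to 37.5% for gluconeogenesis enzymes. No median is given for a list, since a table shows only the genes that differed. The glycolysis enzymes had 10 of 24 genes in the liver table, of which edgeR called 0 higher and 7 lower, and in ileum 9 of 24, of which 1 was called higher and 4 lower. Over all genes edgeR called 7.19% higher and 7.49% lower in liver, and in ileum 7.50% higher and 6.36% lower. After removal of the length trend, liver had 1 glycolysis call and ileum 2, all of them lower, where 2.17% of all genes were called higher and 2.14% lower in liver and, in ileum, 1.45% and 1.52%.

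Among liver glycolysis enzymes, Tpi1, which interconverts the triose phosphates, fell by 0.67 on the log2 scale (edgeR adjusted p = 0.0157). Pgk1, a kinase that forms ATP in lower glycolysis, fell by 0.47 (adjusted p = 0.0233), and Pgam1, the mutase after it, fell by 0.58 (adjusted p = 0.0242). Ldha, which makes lactate, fell by 0.56 (adjusted p = 0.0229). Eno1, the enolase, fell by 0.50 in liver (adjusted p = 0.0232) and by 0.62 in ileum (adjusted p = 0.0229), and kept its call with the length trend taken out, at -0.78 in liver (adjusted p = 0.0152) and -0.79 in ileum (adjusted p = 0.0199). Its call was lost with the GC trend taken out, at -0.26 in liver (adjusted p = 0.181) and -0.16 in ileum (adjusted p = 1). Tpi1, Pgk1, Pgam1 and Ldha in liver lost their calls without the length trend and kept them without the GC trend. Several of these genes have near-identical copies in the genome, so their counts are uncertain where reads could be shared. Bpgm, which makes the effector of haemoglobin bisphosphoglycerate, fell by 0.45 in ileum (adjusted p = 0.0310) and lost its call without the length trend (adjusted p = 0.452). Gpi1, which follows hexokinase, fell by 0.54 in ileum (adjusted p = 0.0356), kept its call with the length trend taken out (-0.88, adjusted p = 0.0176), lost it with the GC trend taken out (-0.33, adjusted p = 0.241), and was named after its value was seen.

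The gluconeogenesis list of 8 enzymes had 3 in the liver table, with Fbp1 the only one called by edgeR, and 5 in the ileum table, with 2 called lower. In ileum Fbp2, the other fructose bisphosphatase, fell by 0.52 (adjusted p = 0.0114), from 3002 ± 333 normalised counts in WT to 2077 ± 209 in KO (SD, n = 4 each). G6pc3, the ubiquitous relative of G6pc, fell by 0.51 (adjusted p = 0.0294). Neither passed with the length trend taken out (adjusted p = 1 for both), and with the GC trend taken out Fbp2 passed (adjusted p = 0.0339) and G6pc3 did not (adjusted p = 1).

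Among the 14 bifunctional enzymes and flux controls, Pfkfb2, the isoform known from heart, was called in the same direction as Pfkfb3 in both organs. In liver it rose from 153 ± 8.35 normalised counts in WT to 432 ± 131 in KO (SD, n = 4 each), with an edgeR log2 fold change of 1.52 ± 0.20 and an adjusted p of 0.0107. In ileum it rose from 241 ± 28.4 to 518 ± 109, with a log2 fold change of 1.11 ± 0.16 and an adjusted p of 0.00530. Its call stood without the length trend as well, at 0.92 in liver (adjusted p = 0.0259) and 0.70 in ileum (adjusted p = 0.0283). Pdk2, a kinase that shuts pyruvate dehydrogenase, fell by 0.67 in ileum (adjusted p = 0.00766), and lost its call with the length trend taken out (-0.37, adjusted p = 0.116) and with the GC trend taken out (-0.23, adjusted p = 0.471).

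Of the 24 hormone and transcription controls, most calls were higher in KO. In liver 13 were in the table and edgeR called 7 higher and 1 lower, and in ileum 10 were in the table with 5 higher and 1 lower. Over all genes 7.19% were called higher and 7.49% lower in liver, and 7.50% and 6.36% in ileum. In liver Irs1, an adaptor of the insulin receptor, rose by 1.27 (adjusted p = 0.0228) and Ppargc1a, a coactivator that drives gluconeogenic genes in fasting, rose by 1.06 (adjusted p = 0.0246). In ileum the glucocorticoid receptor gene Nr3c1 rose by 0.66 (adjusted p = 0.00533), Creb1, which binds the cAMP response element, by 0.62 (adjusted p = 0.0128), the insulin receptor gene Insr by 0.58 (adjusted p = 0.0135), and the adaptor Irs2 by 0.59 (adjusted p = 0.0278). With the length trend taken out 1 of the list was called in liver, Klf15 at 0.74 (adjusted p = 0.0150), named after its value was seen and not called by edgeR otherwise (0.33, adjusted p = 0.127), and 0 in ileum. Without the GC trend, 4 of the list were called higher in liver and 2 in ileum, with 0 lower, beside 13.2% and 5.83% of all genes called in either direction. Irs1 in liver and Irs2 in ileum kept their calls, and Ppargc1a in liver and Nr3c1, Creb1 and Insr in ileum lost theirs. The glucose transporter Slc2a2, the main one of hepatocytes, rose by 0.54 in liver (adjusted p = 0.0183) and was the only gene listed of 7 transporters. It did not pass with the length trend (adjusted p = 0.392) or the GC trend (adjusted p = 1) taken out.

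The 13 genes of the glycerol phosphate and lactate shuttles, to which Gpd1 belongs, had 4 in the liver table, with 2 called lower by edgeR, and 5 in the ileum table, with 1 called lower. Beside Gpd1, liver Mpc2, a subunit of the mitochondrial pyruvate carrier, fell by 0.47 (adjusted p = 0.0370). After removal of the length trend liver Mpc2 stayed called, at -1.12 (adjusted p = 0.0150). In ileum Mpc2 did not pass, at -0.53 (adjusted p = 0.0613), and was called only after removal of the length trend, at -0.98 (adjusted p = 0.0283), or of the GC trend, at -1.02 (adjusted p = 0.0161). Mpc2 was named after its values were seen.

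**Figure D4:**
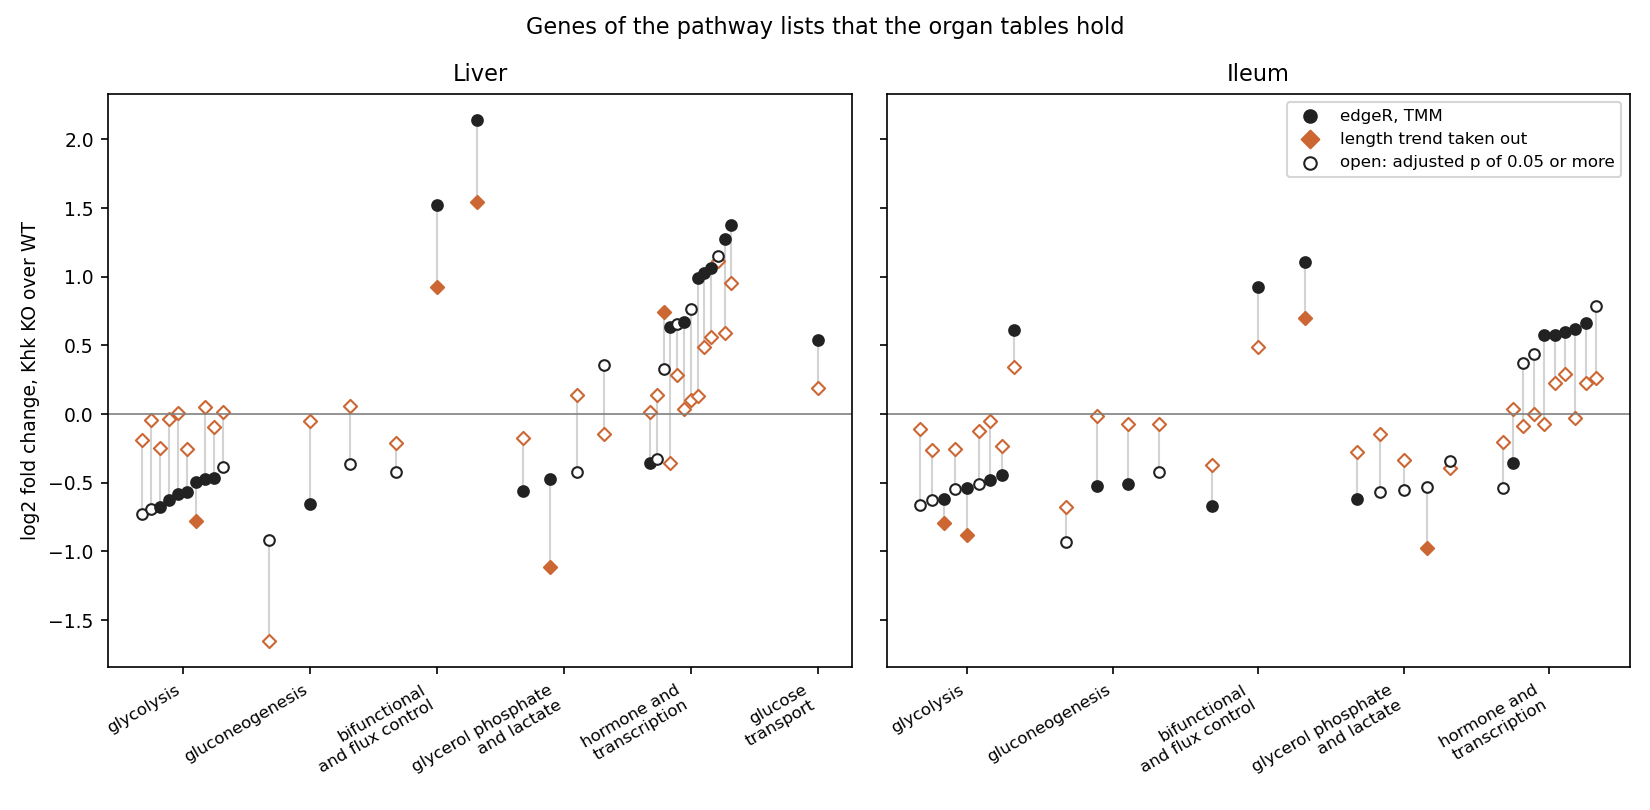
Log2 fold change of KO over WT for each gene of the pathway lists in the liver and ileum tables that passed the filter, by edgeR (circles) and with the length trend taken out (diamonds), filled where the adjusted p was under 0.05 and joined by a line for each gene. The glycolysis circles of liver all lie below 0 with 7 filled, while of the hormone and transcription circles 8 are filled, and in both lists 1 diamond is filled.

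The genes nearest in pattern to each member were found by the root mean square difference of log2 normalised counts, centred per gene, over the 8 libraries of an organ. In liver Pfkfb3 was nearest to Trp53inp1 (0.33), Hivep2 (0.45) and Naaladl2 (0.51) among 4566 candidates, against 1.25 for its own deviation from a flat line. Fbp1 was nearest to Tmem11 (0.064), Drg1 (0.065) and Arpc3 (0.067), and Gpd1 to Sec11c (0.048), Cenpv (0.056) and Emc6 (0.069), against own deviations of 0.37 for Fbp1 and 0.32 for Gpd1. In ileum, among 3966 candidates, Pfkfb3 was nearest to Fmnl2 (0.21), Ttc39b (0.23) and Reln (0.23). Hk2 was nearest to Daam2, Fgf2 and Spry4 (0.19 each), Pck1 to Ankrd37 (0.22), Cdc42ep2 (0.23) and Rbp2 (0.25), and Gpd1 to Slc39a4 (0.066), Cdipt (0.067) and AI413582 (0.069). No test was made on these distances.

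In bulk tissue, fewer cells of a type and less RNA per cell cannot be told apart. Hepatocyte markers in liver had 6 of 8 genes in the table, with 1 called higher and 4 lower in the authors' deposited table, and summed to 351021 to 402605 normalised counts in WT and 296876 to 345068 in KO. Markers of fat cells, which also express Gpd1 and Pck1, had 4 of 7 in the liver table with 3 called lower, and summed to 292 to 1303 in WT and 148 to 299 in KO. In ileum 4 of 7 were listed and 0 were called, with sums of 776 to 3231 in WT and 619 to 1393 in KO. Endothelial markers, from a cell type known for Pfkfb3, had 3 of 6 in the liver table, all 3 called higher, with sums of 488 to 1316 in WT and 1467 to 1599 in KO. In ileum 2 of 6 were listed and 1 was called higher, with sums of 516 to 664 in WT and 732 to 871 in KO. Neither range overlapped between genotypes, but the sums held only Vwf, Kdr and Tek in liver and Tek and Kdr in ileum. These genes were listed because they differed, as in every marker sum here, so the lack of overlap is no result about the cell type. Smooth muscle markers had 3 of 7 in the liver table, with 1 called higher and 1 lower and sums of 499.8 to 1371 in WT and 1657 to 2556 in KO, and none in the ileum table. Leukocyte markers had 2 of 9 in the liver table, with 1 called lower and sums of 933 to 2746 in WT and 669 to 879 in KO, and 2 of 9 in ileum with 0 called, at 277 to 688 in WT and 151 to 352 in KO. Absorptive enterocyte markers in ileum had 5 of 8 listed, with 1 called higher and 1 lower and sums of 182303 to 263052 in WT and 150043 to 198063 in KO. Ileal enterocyte markers had 2 of 6 listed and 0 called, at 15469.9 to 29128 in WT and 11963 to 17916 in KO. Erythroid markers had 5 of 6 in the liver table, all 5 called lower, at 4584 to 10959 in WT and 2967 to 3515 in KO, and 3 of 6 in ileum, 2 of them called lower, at 376 to 737 in WT and 177 to 363 in KO. In ileum 4 of 8 hepatocyte markers were listed (Tat, Cps1, Ass1 and Cyp2e1), 2 of them called higher, at 5301 to 7278 in WT and 9003 to 10394 in KO. In liver 3 of 8 absorptive enterocyte markers were listed (Apoa4, Anpep and Apob), 2 called higher and 1 lower, at 30473 to 111918 in WT and 132479 to 147537 in KO. Whether the organ's own cells express these genes was not examined, so these 2 sums do not measure hepatocytes in ileum or enterocytes in liver. Pancreas acinar markers were in no table, and no listed marker of any type was at 0. The part of these shifts in the values of the members was not tested.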

How the data were processed

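Bulk RNA-seq of 32 libraries was analysed from 1 deposited table per organ. The authors aligned reads with HISAT2 2.0.5 to GRCm38 (mm10), per the submitters' processing notes; the counting tool, annotation, strand setting and test are not given in the sources used here. Per the file headers, each table held raw read counts, FPKM, log2 fold changes and p-values (unadjusted and adjusted). A further deposited signal column was the count divided by 1 size factor per library, here called the normalised count.

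Here counts were tested per organ with edgeR 4.0.16 in R 4.3.3 (quasi-likelihood, TMM, filterByExpr, library totals implied by the FPKM). Since the tables were cut at an unadjusted p of 0.05, Benjamini-Hochberg adjustment ran over the number of genes the authors adjusted over: 18225 for liver, 16034 for ileum, 15615 for duodenum and 9881 for jejunum. The threshold was 0.05. Single values were compared by exact two-sided permutation of 4 against 4 libraries. The labels state 4 mice per group but tie no library to a mouse, so p-values measure the spread between libraries. Alternatives were the authors' size factors, other filters, a replicate block, lowess trends over transcript length or GC content taken out (span 0.5, genes averaging 10 normalised counts or more), DESeq2 1.42.0, limma 3.58.1 on log2(normalised count + 1) and leaving out each library. Only the edgeR fit with TMM was run on simulated counts. These held no length trend and no cut at an unadjusted p, so they cannot judge the other fits or the effect of the cut. TMM factors, dispersions and both trends were fitted on the listed genes alone. TMM assumes that most genes do not differ, which genes listed for differing need not meet. GC values covered over 99% of the genes of each table.

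The members and lists were chosen with earlier results of these data known. Beside the members, pathway genes were named where the authors' adjusted p passed, at most 12 per organ in order of that p, and 3 genes of nearest pattern per called member, each averaging 100 normalised counts or more. The 9 marker lists were read as sums over the genes each table held.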

Additional observations from a re-analysis of the deposited data

Results flagged for a closer look

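One library of a member stood apart from the others of its genotype by Dixon's ratio. In liver, Gpd1 had 3487 normalised counts in KO library 4, while the other 3 KO libraries lay between 4264 and 4354, so that the gap took 0.896 of the range, above the critical value for 4 libraries. Of the 18 groups of 4 libraries looked at, chance alone flags about 1 in 20. Without KO library 4 the edgeR log2 fold change of Gpd1 was -0.52 with an adjusted p of 0.0580, against -0.56 and 0.0206 with it.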

How the results depend on the processing

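Every fold change of a member kept its sign in each alternative run. Of the alternatives to the edgeR values, 96 kept the side of the threshold, 38 lost a call and 2 gained one, most of the losses being single libraries left out. With the length trend taken out, and with the replicate block added to it, the log2 fold changes were 0.49 and 0.47 for Pfkfb3 in ileum, -0.047 and -0.044 for Fbp1 in liver, 0.34 and 0.34 for Hk2 in ileum, -0.17 and -0.18 for Gpd1 in liver and -0.27 and -0.28 for Gpd1 in ileum, and none of these passed. The GC trend ended the Gpd1 calls, at -0.33 in liver and -0.18 in ileum.

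The labels do not say whether the replicate numbers pair the libraries. The same-numbered KO and WT deviations did not correlate above 0.1 in all 4 pairs of any organ, which cannot exclude pairing. In jejunum these correlations were 0.31, 0.050, 0.050 and 0.26 for numbers 1 to 4. With the replicate block alone, Hk2 had 0.61 with an adjusted p of 0.0510, and the calls over all genes numbered 2156 in liver, 1202 in ileum, 1 in duodenum and 0 in jejunum, against 2675, 2221, 1 and 1 by edgeR without it. The authors' size factors put Hk2 at 0.60 and limma at 0.60, both short of the threshold, and DESeq2 called Pck1 at -0.92.

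The counts of genes called moved to 786 in liver, 2 in duodenum and 476 in ileum with the length trend taken out, to 638 in liver, 5 in jejunum and 281 in ileum with the block added, to 935 in ileum without the GC trend, and to 4411, 37, 347 and 3520 in liver, duodenum, jejunum and ileum under DESeq2. Of the ileum calls 54.1% were higher in KO, against 65.9% with the authors' size factors, 67.6% with the block, 70.3% under limma and 41.7% with the GC trend taken out. Leaving out 1 library at a time gave 9 to 4860 calls in liver, 656 to 2912 in ileum, 1 to 3 in jejunum and 1 to 2 in duodenum. The log2 fold changes then ranged from 1.85 to 2.42 for Pfkfb3 in liver, 0.76 to 1.07 for Pfkfb3 in ileum, -0.78 to -0.56 for Fbp1, 0.49 to 0.73 for Hk2, -1.21 to -0.62 for Pck1, -0.86 to -0.48 for G6pc in duodenum, -0.64 to -0.52 for Gpd1 in liver and -0.71 to -0.56 for Gpd1 in ileum. G6pc in ileum did not pass the filter with all 8 libraries and is not among these counts. Where it could be fitted its log2 fold change was -3.16 to -2.22, called without the filter, by DESeq2, by limma and without WT library 4, and not called without any 1 of the KO libraries. The cause of these shifts was not tested.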
